A study of Mus musculus with 4 samples.

Results

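The NRF2 antioxidant target genes examined here are 10 mouse genes: Slc7a11, Gclc, Gclm, Gsr, Txnrd1, Srxn1, Nqo1, Cbr3, Hmox1 and Osgin1. They were taken by gene symbol from a list named beforehand, not by their values on these arrays, although the list was drawn up with earlier results of these data known. All 10 of them are among the 22180 genes that the annotation links to a probe set with a single gene symbol. Liver RNA of C57BL/6 mice older than 2 months was measured on 4 Affymetrix arrays, 1 per group, each holding RNA combined from several livers of both sexes. The groups were a Chrebp-null pool of 6 mice fed 70% fructose for 2 weeks, a wild-type (WT) pool of 4 mice fed 70% fructose for 2 weeks, a WT pool of 7 mice fed 70% fructose for 3 weeks, and a WT pool of 7 mice fed regular chow. The Chrebp-null mice are described only as null for Chrebp, so the null state is not limited to the liver by any label. ChREBP is a sugar-responsive transcription factor, and its gene is Mlxipl. The series design names 2 comparisons, which share no array: the Chrebp-null pool over the WT pool at 2 weeks of fructose, and the WT pool at 3 weeks of fructose over the WT chow pool.

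NRF2, encoded by Nfe2l2, is a transcription factor that KEAP1 marks for degradation in unstressed cells. Oxidants and electrophiles modify KEAP1, NRF2 then accumulates, pairs with a small MAF protein and binds antioxidant response elements near its target genes. In liver its targets supply glutathione and thioredoxin reducing power, reduce quinones and carbonyls, and break down heme. The arrays measured messenger RNA of these genes and not NRF2 itself at its binding sites.

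With 1 array per group there was no replicate and no test, and every difference below is the log2 RMA level of one array minus that of another. A gene was assessed in a comparison where the higher array was at or above a floor of 3.52 on the log2 scale, which is the middle of the genes' mean levels, and was counted where the difference reached 2-fold. Array medians lay between 3.11 and 3.17. The number of genes at or above the floor was 10869 in the 2-week WT pool and 11209 to 11239 in the other pools. Mlxipl read 8.09 in the Chrebp-null pool and 9.83 in the 2-week WT pool, the direction of the genotype label. Hepatocyte markers were at or above the floor in 13 of 13 measured genes on every array, with mean levels from 11.51 to 11.59.

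The promoter windows of the genes that differed by at least 2-fold in a named comparison are shown for their sequence context, from 250 bases before to 50 bases after the annotated start, 5′ to 3′, from RefSeq. Capitals mark matches, on either strand, to the core of the antioxidant response element (TGACNNNGC), the core of the amino acid response element that ATF4 binds (TGATGNAA), the E-box (CACGTG) or the AP-1 site (TGANTCA).
Slc7a11, GRCm38.p6 chr3:50443564-50443863, minus strand: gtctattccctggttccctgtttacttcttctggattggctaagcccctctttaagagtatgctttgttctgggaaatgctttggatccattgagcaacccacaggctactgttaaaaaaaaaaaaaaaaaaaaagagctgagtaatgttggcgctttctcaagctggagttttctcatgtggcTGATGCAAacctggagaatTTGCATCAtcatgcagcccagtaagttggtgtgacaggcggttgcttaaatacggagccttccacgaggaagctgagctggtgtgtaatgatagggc
Srxn1, GRCm38.p6 chr2:152105274-152105573, plus strand: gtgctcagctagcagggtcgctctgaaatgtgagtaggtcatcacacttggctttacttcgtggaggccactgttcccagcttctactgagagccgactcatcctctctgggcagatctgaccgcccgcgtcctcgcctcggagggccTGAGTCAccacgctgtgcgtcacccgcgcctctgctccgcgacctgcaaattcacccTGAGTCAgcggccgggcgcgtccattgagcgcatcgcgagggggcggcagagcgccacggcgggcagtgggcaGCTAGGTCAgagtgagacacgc
Nqo1, GRCm38.p6 chr8:107403156-107403455, minus strand: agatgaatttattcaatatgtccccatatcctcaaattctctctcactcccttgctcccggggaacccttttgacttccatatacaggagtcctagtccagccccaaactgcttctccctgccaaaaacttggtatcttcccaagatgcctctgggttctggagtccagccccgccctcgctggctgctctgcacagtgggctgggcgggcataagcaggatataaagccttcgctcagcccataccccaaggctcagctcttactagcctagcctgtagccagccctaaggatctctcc
Cbr3, GRCm38.p6 chr16:93682969-93683268, plus strand: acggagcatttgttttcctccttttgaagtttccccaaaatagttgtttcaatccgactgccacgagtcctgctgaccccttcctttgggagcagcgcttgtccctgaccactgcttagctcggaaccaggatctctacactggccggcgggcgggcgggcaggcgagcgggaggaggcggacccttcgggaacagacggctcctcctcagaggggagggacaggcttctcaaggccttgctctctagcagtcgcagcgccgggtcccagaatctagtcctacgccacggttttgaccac
Osgin1, GRCm38.p6 chr8:119436897-119437196, plus strand: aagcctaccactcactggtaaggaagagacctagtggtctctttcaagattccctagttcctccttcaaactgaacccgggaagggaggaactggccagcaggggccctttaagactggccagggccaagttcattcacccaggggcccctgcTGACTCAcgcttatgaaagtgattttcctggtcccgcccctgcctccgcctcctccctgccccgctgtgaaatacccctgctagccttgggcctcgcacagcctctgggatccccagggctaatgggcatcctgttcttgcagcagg

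Windows were found for 7 of the 10 genes, 9 windows in all, since Txnrd1 has 3. Slc7a11 has 2 amino acid response element cores, beginning 66 and 47 bases before the start, and 2 or more such matches occur in 0.07% of the 32851 windows of the table. Srxn1 has AP-1 matches beginning 102 and 45 bases before the start and an antioxidant core beginning 29 bases into the transcript. Gclm and the second Txnrd1 window hold an antioxidant core each, and Osgin1 has 1 AP-1 match, beginning 97 bases before the start. An antioxidant core occurs in 12.4% of all windows, an AP-1 match in 7.81% and an amino acid response element core in 3.97%. For AP-1, 2 or more matches occur in 0.46% of all windows. No E-box lies in these 9 windows, against 7.15% of all windows, and no match to any of the 4 motifs lies in the Nqo1 and Cbr3 windows. The windows reach only 250 bases before the start, and sequence farther away was not searched, so a window without a match does not mean a gene without an element. The cores of antioxidant and AP-1 sites can overlap one another, although none of the matches in these windows does. With the gc that follows it, the Srxn1 AP-1 match beginning 45 bases before the start differs from the antioxidant core in 1 letter. Its label as AP-1 alone thus depends on the letters chosen. A match is a description of letters and not evidence of binding.

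The Chrebp-null comparison asks how liver RNA differs without Chrebp on a fructose diet. The Chrebp-null pool was higher than the 2-week WT pool in 10 of 10 genes, and 4 of them, Slc7a11, Cbr3, Srxn1 and Nqo1, were at least 2-fold higher. Among all 11631 assessed genes 2.03% were at least 2-fold higher in this comparison and 63.4% were above 0. The median of the 10 differences was 0.84, and the median over all assessed genes was 0.10. As read, 4 differences were 1.99 or more and 6 lay between 0.19 and 0.96. Srxn1 and Nqo1, above the floor on every array, ranked 16th and 23rd from the top of all assessed genes. Slc7a11 and Cbr3 were above the floor in the null pool alone, so they could be assessed in this comparison only as higher. Both are included in the counts and the median above. Of the genes past 2-fold, only Srxn1 and Nqo1 were free to go either way. For Slc7a11 and Cbr3 the differences as read have no exact size and only a lower bound is given.

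**Figure D1:**
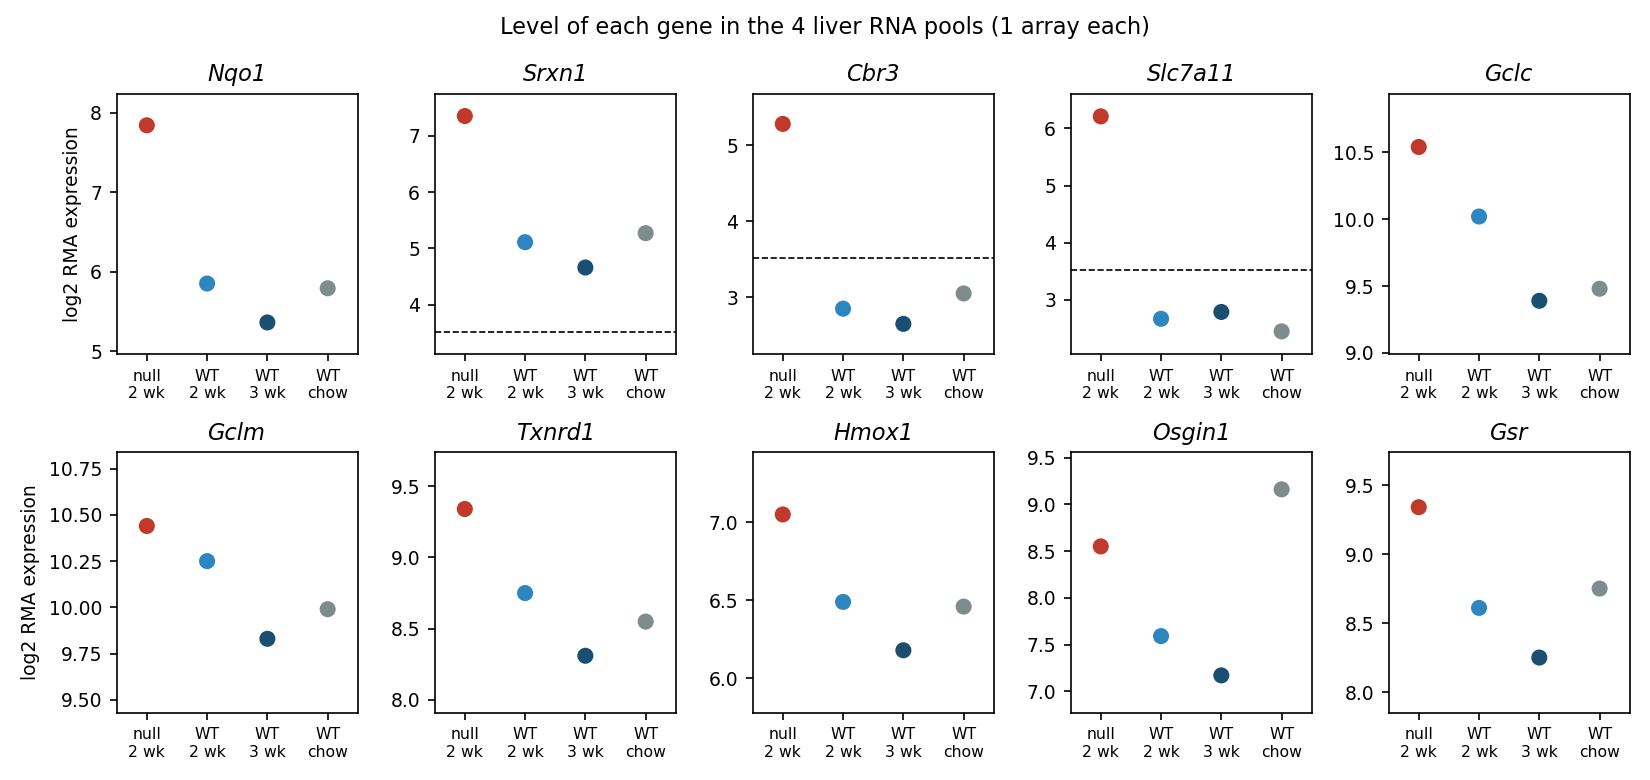
Log2 RMA level of each gene on the 4 arrays, 1 point per pool, with the Chrebp-null pool at the left and the chow pool at the right; the dashed line marks the floor of 3.52 where it lies in the panel, and each panel has its own axis because levels of different probe sets are not comparable. The Chrebp-null pool is the highest point for 9 of the 10 genes, and Osgin1 is highest in the chow pool.

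Slc7a11, the cystine and glutamate exchanger that brings in cystine for glutathione synthesis, read 6.21 in the Chrebp-null pool, 2.67 in the 2-week WT pool, 2.79 in the 3-week WT pool and 2.45 in the chow pool. It was above the floor in the null pool and below it in the 3 WT pools, which differed among themselves by less than their distance to the floor. The null pool was higher than the 2-week WT pool by 3.54, which is at least 6.45-fold when the WT reading is raised to the floor. The gene has a second probe set, which read 2.00 in the Chrebp-null pool, 1.90 in the 2-week WT pool, 1.74 in the 3-week WT pool and 1.74 in the chow pool, below the floor throughout. The difference thus rests on 1 of 2 probe sets, and averaging both gives 1.82.

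Gclc, the catalytic subunit of glutamate-cysteine ligase, which performs the rate-limiting step of glutathione synthesis, read 10.54 in the Chrebp-null pool, 10.02 in the 2-week WT pool, 9.39 in the 3-week WT pool and 9.48 in the chow pool. Gclm, the modifier subunit of the same enzyme, read 10.44 in the Chrebp-null pool, 10.25 in the 2-week WT pool, 9.83 in the 3-week WT pool and 9.99 in the chow pool. For both subunits the 2-week WT pool lay between the null pool and the other WT pools. Null over 2-week WT came to 0.52 for Gclc and 0.19 for Gclm, under 2-fold, and 37.4% of all assessed genes had a difference as large as that of Gclm or larger. Over the 3-week WT pool Gclc was 1.15 higher in the null pool and Gclm 0.61 higher.

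Gsr, glutathione reductase, which returns oxidised glutathione to its reduced form, read 9.34 in the Chrebp-null pool, 8.61 in the 2-week WT pool, 8.25 in the 3-week WT pool and 8.75 in the chow pool. Txnrd1, the cytosolic thioredoxin reductase, read 9.34 in the Chrebp-null pool, 8.75 in the 2-week WT pool, 8.31 in the 3-week WT pool and 8.55 in the chow pool. Both reductases were highest in the null pool and lowest in the 3-week WT pool. Null over 2-week WT was 0.73 for Gsr and 0.59 for Txnrd1, each under 2-fold. Against the 3-week WT pool the differences were 1.09 and 1.03 in the same order, just past 2-fold.

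Srxn1, sulfiredoxin, which repairs over-oxidised peroxiredoxins, read 7.35 in the Chrebp-null pool, 5.11 in the 2-week WT pool, 4.66 in the 3-week WT pool and 5.27 in the chow pool. All 4 levels were above the floor, and the null pool stood apart from the WT pools, which spanned 4.66 to 5.27. Its difference in the Chrebp-null comparison was 2.24, a ratio of 4.73.

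Nqo1, a quinone reductase widely used as a readout of NRF2, read 7.84 in the Chrebp-null pool, 5.85 in the 2-week WT pool, 5.36 in the 3-week WT pool and 5.79 in the chow pool. The WT pools again lay close together and well below the null pool. The Chrebp-null difference of 1.99 is a ratio of 3.98. Cbr3, a carbonyl reductase, read 5.28 in the Chrebp-null pool, 2.85 in the 2-week WT pool, 2.65 in the 3-week WT pool and 3.05 in the chow pool. Like Slc7a11 it crossed the floor in the null pool alone, so its difference of 2.43 is given as at least 3.38-fold, with the WT reading raised to the floor. Its paralog Cbr1, a second carbonyl reductase, read 10.71 in the Chrebp-null pool and 9.99 in the 2-week WT pool, a difference of 0.72, so the 2 genes differed in the size of the difference. Array probes may not fully separate the 2 paralogs.

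Hmox1, the inducible heme oxygenase, read 7.05 in the Chrebp-null pool, 6.49 in the 2-week WT pool, 6.18 in the 3-week WT pool and 6.46 in the chow pool. Its null over 2-week WT difference of 0.56 was under 2-fold. Macrophages also express Hmox1. Of 16 assessed macrophage markers 7 were above 0 and 9 below 0 in the null pool over the 2-week WT pool, with a median of -0.04. Of all assessed genes 63.4% were above 0. The pair of markers at least 2-fold higher, where 2.03% of all assessed genes were, were the scavenger receptor gene Marco (2.66) and Gpnmb (1.40). The 2-week WT reading of Gpnmb was below the floor, so it could be assessed only as higher. Raising that reading to the floor gave 1.28. The mean level of the 17 measured macrophage markers was 6.61 in the Chrebp-null pool, 6.38 in the 2-week WT pool, 6.09 in the 3-week WT pool and 6.19 in the chow pool, with 14 or 15 of them at or above the floor on each array. Without Marco and Gpnmb, a choice made after their values were seen, the mean of the other 15 was 6.63 in the Chrebp-null pool and 6.64 in the 2-week WT pool. In bulk tissue fewer cells of a type and less RNA per cell cannot be told apart, and the part of the macrophage signal in the Hmox1 difference was not tested.

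Osgin1, an oxidative stress response gene that restrains cell growth, read 8.55 in the Chrebp-null pool, 7.59 in the 2-week WT pool, 7.17 in the 3-week WT pool and 9.16 in the chow pool. It alone of the 10 was highest on chow. The null pool stood above both WT fructose pools, by 0.96 over the 2-week pool and 1.38 over the 3-week pool, and below the chow pool at -0.61. It missed 2-fold in the Chrebp-null comparison and passed it in the fructose comparison described next.

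**Figure D2:**
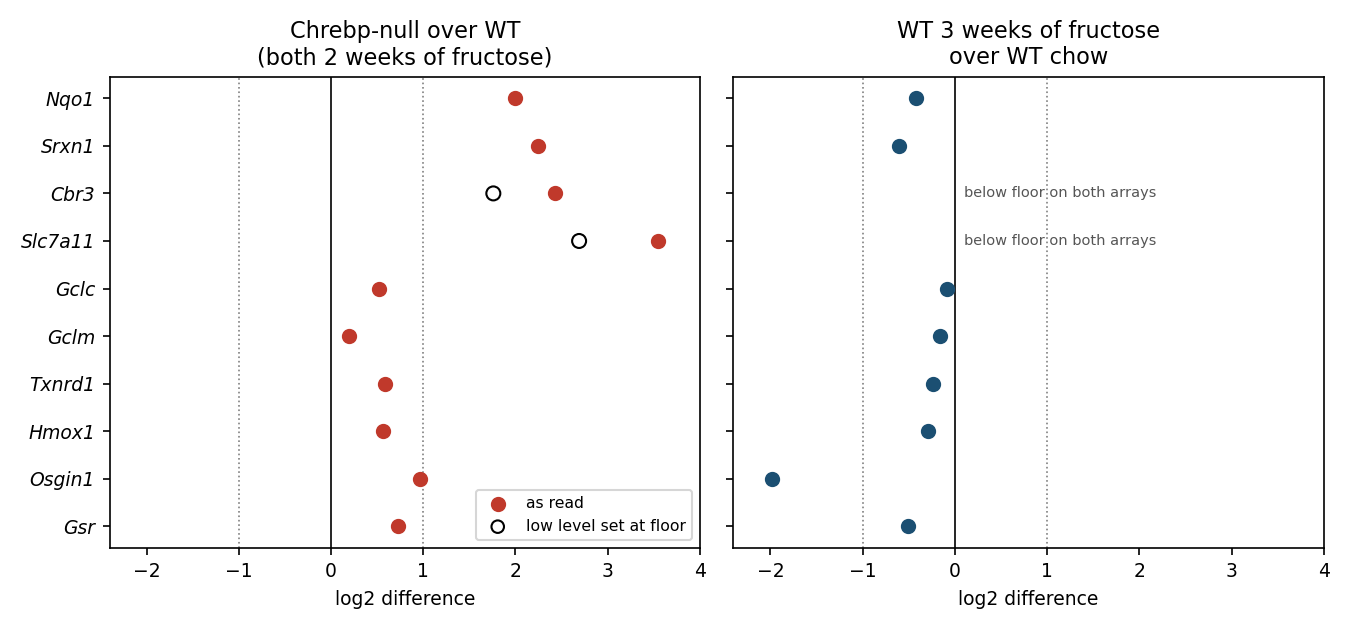
Log2 difference of each gene in the Chrebp-null comparison (left) and in the fructose comparison (right); filled points are values as read, open circles have the dimmer array set at the floor, and dotted lines mark 2-fold. The left panel shows 10 differences above 0, and the right panel shows 8 below 0, with Osgin1 at -1.98. Slc7a11 and Cbr3 could be assessed at the left only as higher.

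The fructose comparison asks how liver RNA differs after 3 weeks of the diet. The 3-week WT fructose pool was lower than the chow pool in 8 of the 8 assessed genes, but only Osgin1 was at least 2-fold lower. Cbr3 and Slc7a11 were below the floor on both arrays and were not assessed. Among all 11717 assessed genes 1.16% were at least 2-fold lower and 56.5% were below 0. The median was -0.35 over the 8 genes and -0.05 over all assessed genes. Osgin1 was lower by a ratio of 3.96 and ranked 5th from the bottom. The other differences were small: Srxn1 stood at -0.61, Gsr at -0.51 and Nqo1 at -0.42, and the remaining 4 lay between -0.29 and -0.09.

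The 2-week WT pool did not show the same picture. Over the same chow array it was above 0 in 5 genes and below 0 in 3, with a median of 0.05. Of all assessed genes 44.4% were above 0 and 55.5% below 0 there, with a median of -0.04. Gclc stood at 0.54 in the 2-week pool over chow and at -0.09 in the 3-week pool over chow. Osgin1 was at least 2-fold lower than chow in each WT fructose pool, at -1.57 at 2 weeks and -1.98 at 3 weeks, and 1.41% of all assessed genes were at least 2-fold lower at 2 weeks. These differences share the chow array, so they are not separate observations. Between the WT fructose pools, which hold different mice and differ in time on the diet, the 3-week pool was lower in 8 of 8 assessed genes, by 0.32 to 0.63, none past 2-fold. In that contrast 52.2% of all assessed genes were below 0, and 2.37% passed 2-fold in either direction.

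Against each of the other arrays too, the null pool was higher in most of the genes. It was above 0 in 10 genes over the 3-week WT pool and in 9 over the chow pool. Of all assessed genes 62.1% and 57.4% were above 0 in the same order. Over the 3-week WT pool 8 of the 10 genes were at least 2-fold higher, where 3.38% of all assessed genes were, and Gclm and Hmox1 were not. Over the chow pool 5 were at least 2-fold higher, where 1.66% of all assessed genes were: Slc7a11, Srxn1 at 2.08, Nqo1 at 2.05, Cbr3 and Gclc at 1.06. With the chow reading raised to the floor, Slc7a11 was at least 2.69 and Cbr3 at least 1.76 higher on the log2 scale. The same null array enters all these differences. Slc7a11 and Cbr3, below the floor in every WT pool, could be assessed in them only as higher. Of the 10 genes 9 had their highest level in the null pool and 9 their lowest in the 3-week WT pool. The latter include Cbr3, whose WT readings were all below the floor and do not rank the WT pools. Over the 12194 genes at or above the floor on at least 1 array, 37.6% were highest in the null pool and 34.3% were lowest in the 3-week WT pool.

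**Figure D3:**
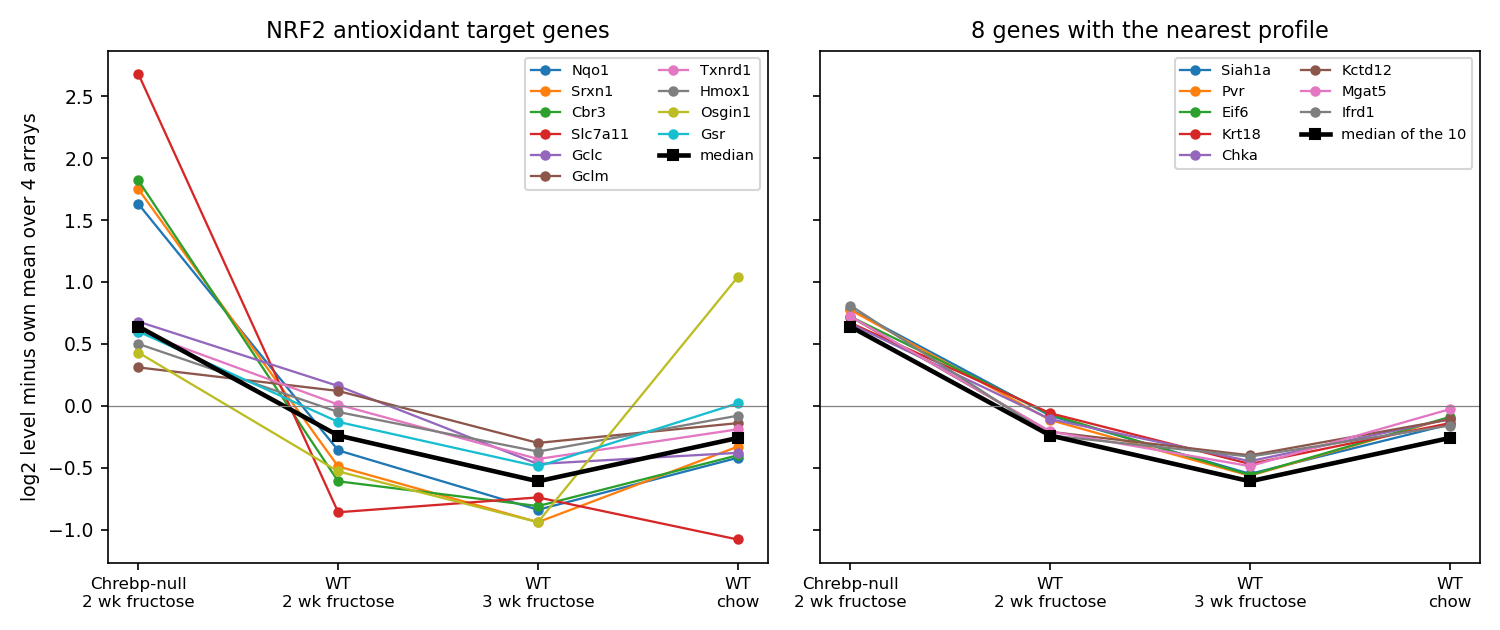
Level of each gene minus its own mean over the 4 arrays, in log2 units, for the 10 NRF2 antioxidant target genes (left) and for the 8 other genes with the nearest profile (right); the black line in both panels is the median of the 10. Osgin1 is the one gene with its highest level in the chow pool, and the WT values of Slc7a11 and Cbr3 come from readings below the floor.

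The median profile of the 10 genes, each level taken minus the gene's own mean, was 0.64 in the Chrebp-null pool, -0.24 in the 2-week WT pool, -0.61 in the 3-week WT pool and -0.26 in the chow pool. Gsr, Txnrd1 and Hmox1 lay nearest to it, at root mean square distances of 0.162, 0.163 and 0.191. Slc7a11 stood at 1.144, a distance that rests on WT readings below the floor. Over the same 4 arrays, the 8 genes outside the list with the smallest distance were Siah1a, Pvr, Eif6, Krt18, Chka, Kctd12, Mgat5 and Ifrd1, at 0.124 to 0.139. Their null over 2-week WT differences lay between 0.73 and 1.04. With 4 points per gene many genes can share a shape, so the likeness describes these arrays only.

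Of the genes that control NRF2, Nfe2l2, which encodes it, read 8.62 in the Chrebp-null pool, 8.44 in the 2-week WT pool, 8.38 in the 3-week WT pool and 8.43 in the chow pool. Keap1, its inhibitor, read 6.41 in the Chrebp-null pool and 6.37 in the 2-week WT pool, a difference of 0.03. Of 11 assessed control genes 0 passed 2-fold in the Chrebp-null comparison, where 2.03% of all assessed genes were higher and 1.43% lower by that much. The median of the 11 was 0.10, equal to that of all assessed genes. The small MAF partners Mafg and Mafk stood at 0.39 and 0.38, and Sqstm1, an autophagy receptor that binds KEAP1 and is itself an NRF2 target, at 0.52. In the fructose comparison Sqstm1 stood at -0.75 and Keap1 at -0.39. There 0 of 12 passed 2-fold, where 0.640% of all assessed genes were higher and 1.16% lower by that much.

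Other known NRF2 targets gave a mixed picture in the Chrebp-null comparison. Of 24 assessed, 4 were at least 2-fold higher, where 2.03% of all assessed genes were. Another 1 was lower by that much, where 1.43% of all assessed genes were, and the median of the 24 was 0.42. Abcc4, an efflux transporter, stood at 2.77, Cyp2a5, a cytochrome P450, at 1.29 and Gstm4, a glutathione S-transferase of a family with similar copies, at 1.26. Ugdh, which makes UDP-glucuronate and was named after its value was seen, stood at 1.12. Me1, malic enzyme, which is also a lipogenic gene, went the other way at -1.76. In the fructose comparison Me1 was the 1 gene at least 2-fold higher, at 1.18, where 0.640% of all assessed genes were. Abcc3, an efflux transporter, and Slc48a1, a heme transporter, were lower at -1.82 and -1.46, where 1.16% of all assessed genes were at least 2-fold lower. The median over the 24 was -0.32 in that comparison.

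**Figure D4:**
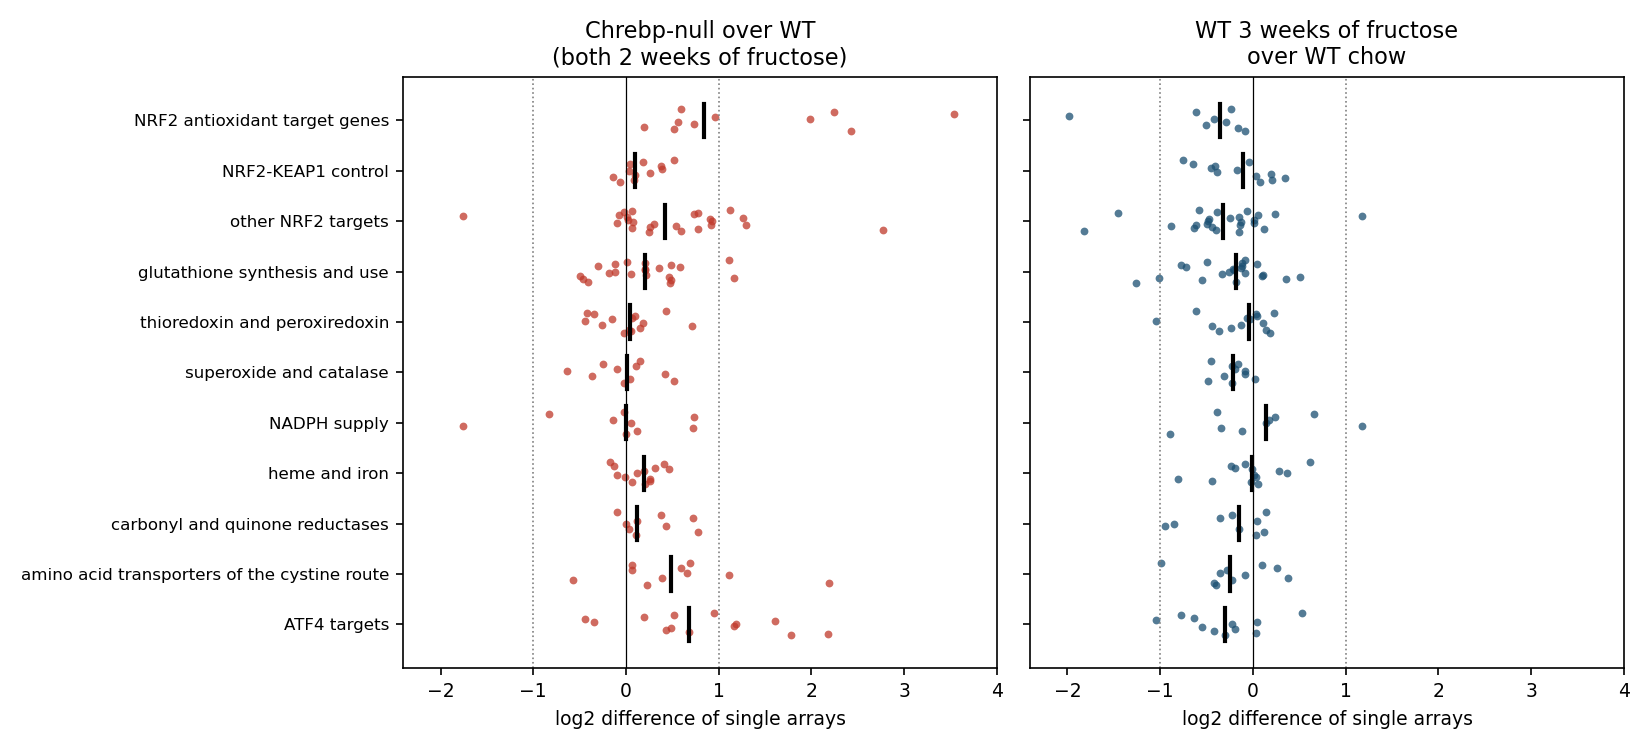
Log2 differences of the assessed genes of each list, 1 point per gene, in the Chrebp-null comparison (left) and the fructose comparison (right); black bars are medians and dotted lines mark 2-fold. The median of the NRF2 antioxidant target genes is 0.84 at the left and -0.35 at the right, and some genes stand in more than 1 list. The left median includes Slc7a11 and Cbr3, which could be assessed there only as higher.

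Around the glutathione genes, 2 of 21 assessed genes of glutathione synthesis and use were at least 2-fold higher in the null pool. The share over all assessed genes was 2.03%. The 2 genes were Cth, which makes cysteine, at 1.16, and Slc3a2, the heavy chain that pairs with Slc7a11, at 1.11. Slc3a2 read 9.01 in the Chrebp-null pool and 7.90 in the 2-week WT pool. Slc7a11 itself could be assessed in this comparison only as higher, and its second probe set was below the floor throughout. Gss, which completes glutathione synthesis, stood at 0.49 in that comparison and at -0.78 in the fructose comparison. In the latter, Ahcy at -1.26 and Cth at -1.01 were the 2 genes of the list past 2-fold, where 1.16% of all assessed genes were at least 2-fold lower. Cth stood at -0.97, under 2-fold, both after quantile normalization and after removal of the trend with level. A second Ahcy probe set stood at 0.11 there, and the mean of both probe sets was -0.58.

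Around Txnrd1 and Srxn1, 0 of 14 assessed thioredoxin and peroxiredoxin genes passed 2-fold in the Chrebp-null comparison, with Prdx3, the mitochondrial peroxiredoxin, farthest from 0 at 0.71. Sesn2, a sestrin induced by stress, was the 1 gene past 2-fold in the fructose comparison, at -1.05, and stood at -0.98, under 2-fold, once the trend with level was removed. None of 10 superoxide and catalase genes, 13 heme and iron genes or 9 carbonyl and quinone reductases other than the 10 genes passed 2-fold in either comparison. Among 9 genes of NADPH supply only Me1 did. Over all assessed genes 2.03% were at least 2-fold higher and 1.43% lower in the Chrebp-null comparison. In the fructose comparison the shares were 0.640% and 1.16%. At such shares, counts of 0 or 1 in lists this short say little about their genes. The medians of the superoxide and catalase, heme and iron, reductase and NADPH supply lists were 0.01, 0.19, 0.12 and 0.00 in the Chrebp-null comparison.

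Slc7a11 is a target of ATF4, the effector of the integrated stress response, as well as of NRF2. In the ATF4 list, which does not hold Slc7a11, 5 of 13 assessed genes were at least 2-fold higher in the null pool. The share over all assessed genes was 2.03%. The median of the list was 0.68, with Atf3 at 2.18, Asns at 1.78, Psat1 at 1.61 and Mthfd2 at 1.19 as read. Phgdh and Sesn2 were below 0, at -0.35 and -0.44. For Psat1 and Mthfd2 the 2-week WT reading was below the floor, so they could be assessed only as higher. Raising that reading to the floor gave 0.83 and 0.58, both under 2-fold. Ddit3, which encodes CHOP, stood at 1.17 and Atf4 at 0.68. Of 10 assessed amino acid transporters 2 were at least 2-fold higher, Slc1a5 and Slc3a2, beside the same share of 2.03% over all assessed genes. Slc3a2 was already counted among the glutathione genes. The 2-week WT reading of Slc1a5, a glutamine transporter, was below the floor, so it too could be assessed only as higher. Slc1a5 stood at 2.19 as read and at 1.16 after the WT reading was raised to the floor. A second Slc1a5 probe set, below the floor, stood at 0.43.

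Sex-linked genes differed between the pools as well, and the labels do not state how many males and females each pool held. Xist read 7.04 in the Chrebp-null pool and 8.56 in the 2-week WT pool, a difference of -1.53. In the same comparison Uty, Kdm5d and Eif2s3y, which are Y-linked, were at 0.53, 0.76 and 0.84. The differences were larger against the other WT pools. Null over chow was -1.81 for Xist and 1.37, 1.16 and 1.23 for the Y-linked genes in the same order. Null over the 3-week WT pool was -1.74 for Xist and 0.72, 1.11 and 1.34 for the Y-linked genes. In the fructose comparison Xist stood at -0.07 and the Y-linked genes lay between -0.12 and 0.64. The part of sex in the differences of the NRF2 targets was not tested. Other liver cell markers had medians of -0.01 for hepatocytes, -0.04 for macrophages, -0.15 for endothelium, 0.45 for 4 cholangiocyte genes, 0.04 for stellate cells and 0.04 for 4 lymphocyte and neutrophil genes in the Chrebp-null comparison, and the 2 erythroid genes measured were below the floor on every array. In the fructose comparison the endothelial median was 0.33, with 9 of 10 genes above 0, beside the median of -0.35 of the 8 NRF2 targets. The other medians there were -0.07 for hepatocytes, -0.15 for macrophages, 0.15 for cholangiocytes, -0.10 for stellate cells and -0.13 for lymphocytes and neutrophils. The part of these cell types in the differences was not tested.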

How the data were processed

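Total RNA of mouse livers was combined by genotype and diet, labelled with a whole-transcript kit and put on 1 array per group, as the labels' protocols state. For 41345 probe sets the authors deposited log2 values, made with affy and RMA per the submitters' processing notes, without stated versions or settings. RMA subtracts background, normalizes arrays and summarises probes, and may shrink large differences and differences of dim genes. Arrays hold no read depth, and their number limits the precision.

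The values were used as deposited. The platform annotation gave 23521 probe sets a single symbol. For the 1082 genes with more than 1 such probe set, the brightest on average was kept. The 10 symbols matched RefSeq by Entrez identifier. Promoter windows came from RefSeq on GRCm38.p6, and no other coordinates are given, since no build is given with the values. The members, lists and motifs were chosen with earlier results of these data known, and the sex-linked genes were added after the data were examined. The named genes are the 10 genes, the target gene, the NRF2 control genes, up to 4 genes per list and comparison with the largest absolute difference, and the 8 nearest profiles. Not all are printed.

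Counting and scaling steps were tested on simulated data. The alternatives tried were dropping the floor, raising it to the 75 percentile, median centring, quantile normalization, lowess removal of the trend with level (fraction 0.3), the mean of all probe sets, 1.5-fold and 3-fold thresholds, low levels set at the floor, and exchanging the WT fructose arrays or averaging them. Computations used Python 3.11.15, numpy 2.4.6, pandas 2.3.3, statsmodels 0.14.6 and matplotlib 3.10.9.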

Additional observations from a re-analysis of the deposited data

Results flagged for a closer look

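In 5 of the genes the WT fructose pools lay on opposite sides of the same chow array, below it at 3 weeks and above it at 2 weeks. The 3-week minus 2-week difference was -0.48 for Nqo1, -0.63 for Gclc, -0.42 for Gclm, -0.44 for Txnrd1 and -0.32 for Hmox1. Each side is a single array, the pools hold different mice, and the difference was not tested. For Nqo1 and Hmox1 the 2-week pool stood only 0.06 and 0.03 above chow, and for Gclc the 3-week pool stood at only -0.09. Over chow, Gclm stood at -0.16 at 3 weeks and 0.26 at 2 weeks, and Txnrd1 at -0.24 and 0.20. Each of the 5 genes thus had a side within 0.34 of chow, the robust spread over genes between the WT fructose arrays, so the crossing is not clear for any of them.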

How the results depend on the processing

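No paired analysis was possible because each group has 1 array and no test was run. The count of 4 genes at least 2-fold higher in the Chrebp-null comparison became 7 at a 1.5-fold threshold and 8 with the 3-week WT array as the comparator, where the median changed to 1.26. The other alternatives kept the count within 1.5 times of 4, and the genes above 0 numbered 10 of 10 in each of them except the floor at the 75 percentile, which left 9 of 9. The count of 1 gene lower in the fructose comparison became 2 at a 1.5-fold threshold, and the median changed to 0.05 with the 2-week WT array. Under the scalings (median centring, quantile normalization, lowess and the mean of probe sets) the median of the 10 genes stayed between 0.80 and 0.85 in the Chrebp-null comparison and that of the 8 between -0.39 and -0.28 in the fructose comparison. Lowess removal moved the median of all assessed genes in the Chrebp-null comparison to 0.00, against 0.10 as deposited. It also changed the counts over all genes to 156 higher and 195 lower, against 236 and 166. Over single genes, each taken under several alternatives, 101 values moved by less than 0.34 and 17 by more. That 0.34 is the robust spread over genes between the 2 WT fructose arrays. Some values could not move: averaging probe sets leaves a gene with 1 probe set unchanged, and setting low levels at the floor leaves genes above it unchanged. The larger moves came from exchanging the WT array, apart from the floor setting for Slc7a11 and Cbr3 and the probe set mean for Slc7a11. The medians of the thioredoxin, superoxide and NADPH lists changed sign or reached 0 under these scalings in the Chrebp-null comparison. The same held there for the hepatocyte, stellate cell, and lymphocyte and neutrophil marker medians. In the fructose comparison it held for the thioredoxin, heme and iron, and sex-linked lists. Levels near or below the floor, as for Slc7a11 and Cbr3 in the WT pools, give bounds only. With the floor applied, both genes could be assessed in the Chrebp-null comparison only as higher.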
